A study of Aedes aegypti with 6 samples.

Results

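This account describes 44 genes of the mosquito Aedes aegypti whose RNA level differed strongly between 3 pools of larvae, out of 19804 gene identifiers counted. A gene was included when its CPM (counts per 1000000 gene counts of a library) was at least 100 in the highest larval library and under 50 in the lowest, and the highest value plus 1 was at least 20 times the lowest plus 1. Of 674 genes with at least 100 CPM in the highest larval library, 44 met the rule, a share of 6.53%. The larval values chose these genes, so those values are described and not tested.

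Whole-body RNA was sequenced from larvae and adults collected at 3 places in Eastern India. Location 1 is the site labelled K1, location 2 is K3, and location 3 is C. Pools of 10 mosquitoes gave 6 libraries, 1 of larvae and 1 of adults from each location. No strain, genotype or treatment is labelled, and the sources used here do not give larval instar, adult sex or feeding state. Without a further pool of the same stage and location, no location difference below has a replicate spread. In whole-body RNA, fewer cells of a type and less RNA per cell cannot be told apart.

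Mosquito larvae live and feed in water and grow through a series of instars separated by moults, after which they pupate. Around each moult a new cuticle is made beneath the old one, and many transcripts of growth, cuticle and digestion are present for only part of an instar. This is background, and no result below was tied to age or moult. The deposited tables give identifiers of the form AAEL without names, and 0 of them matched the RefSeq gene table of assembly AaegL5.0, so no function is given for any member and no marker of stage or tissue was checked.

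Gene counts per library were 12049243 to 18328454 in larvae and 3271618 to 10450701 in adults. The larval library of location 2 stood apart in breadth, with 7807 genes counted at least once, against 5117 at location 1 and 6230 at location 3, although it held the fewest gene counts of the larval libraries. A further measure was the variance of the genes' forward-strand shares over its binomial value, which is about 1 for independent reads of genes alike in strand share. Over genes with 20 to 100 reads it was 2.64 in the larvae of location 2, 23.8 at location 1 and 14.0 at location 3. Reads that mapped to several places were not counted to genes, and made up 11.5 to 16.2% of all reads in the larval libraries and 36.0 to 62.2% in the adult ones. The part of these library differences in the results below was not tested.

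Most members were high at location 2 and low at location 3. The highest larval library was that of location 2 for 34 of the 44 members, that of location 3 for 7 and that of location 1 for 3. Among the other 630 genes that reached 100 CPM in a larval library, location 2 was highest for 168 (26.7%), location 1 for 236 (37.5%) and location 3 for 226 (35.9%). The lowest library was that of location 3 for 34 members, location 2 for 6 and location 1 for 4, while among the other 630 genes location 2 was the lowest for 351 (55.7%) and location 3 for 130 (20.6%). Summed over members, their share of the larval gene counts was 0.676% at location 1, 1.95% at location 2 and 0.746% at location 3.

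**Figure D1:**
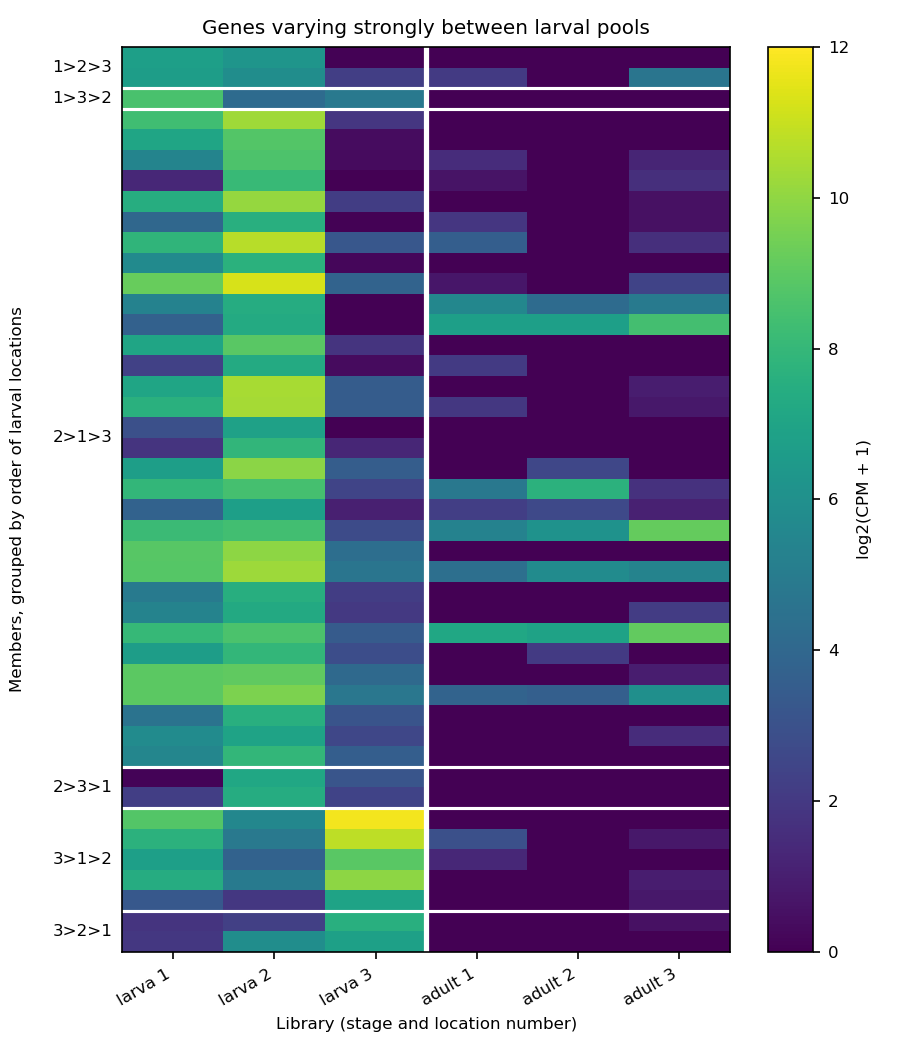
Level of each of the 44 members (rows, grouped by the order of the larval locations written at the left) in the 6 libraries (columns), as log2(CPM + 1) in colour. The block of 32 rows ordered 2>1>3 is bright in the larvae of location 2 and dark in those of location 3, and most rows are dark in the 3 adult libraries.

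The split by location depended on how the libraries were scaled. TMM, a scaling that balances most genes between libraries, moved log2 levels by -0.26, 0.28 and -0.16 in the larvae of locations 1, 2 and 3. With it 48 genes met the rule, 39 of them among the 44, and location 2 was highest for 43, location 3 for 5 and location 1 for 0. With DESeq2 size factors the numbers were 46 genes, 39 of them shared, with 41 highest at location 2, 5 at location 3 and 0 at location 1. When the larvae of location 3 were left out, 6 genes met the rule over the remaining pair of larval libraries. Without the larvae of location 2 the count was 15, and without those of location 1 it was 39. Leaving out a larval library can only remove genes from the rule, so the direction of these changes was fixed in advance.

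Most members shared 1 order of the larval libraries, while the sizes of the differences varied. The order is read from the larval values that chose the members, so it is a description only. Of 6 possible orders, location 2 above 1 above 3 held 32 members. The order 3 above 1 above 2 held 5, and the 4 others held 1 or 2 each. In the 32 members, the larvae of location 2 ran from 110 to 2476 CPM (median 344), those of location 1 from 1.53 to 591 CPM (median 103), and those of location 3 from 0 to 25.8 CPM (median 4.01). On the log2(CPM + 1) scale, location 2 stood above location 1 by 0.09 to 6.76 (median 2.30), and location 1 above location 3 by 0.49 to 6.64 (median 4.15). Location 1 was within 2-fold of location 2 in 5 of the 32 and over 10-fold lower in 7. The 32 were grouped by this order, so their common direction follows from the grouping, while the place of the middle library between the ends varied. No count of orders over the other genes is given beside it. A correlation over 3 libraries was not computed.

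**Figure D2:**
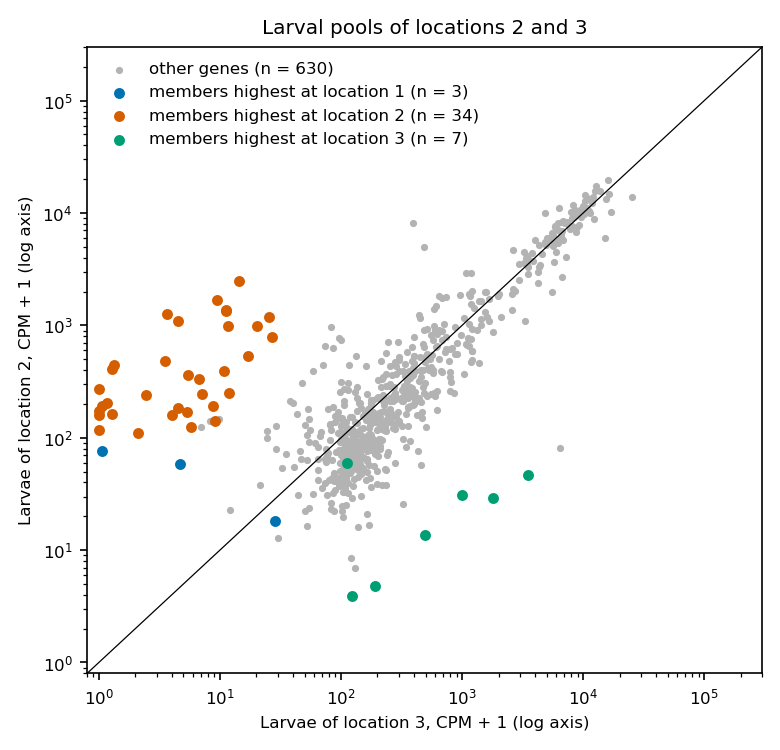
CPM + 1 in the larvae of location 3 (horizontal, log axis) against those of location 2 (vertical, log axis) for the 674 genes with at least 100 CPM in the highest larval library, with the line of equal values. The 34 members highest at location 2 form a group at the upper left, the 7 highest at location 3 lie below the line, and the 630 other genes (grey) lie mostly along it.

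Among members highest at location 2, AAEL023487 had the largest ratio. It was at 323, 1253 and 2.67 CPM in the larvae of locations 1, 2 and 3, and had 0 counts in all 3 adult libraries. Its highest larval value was 469 times its lowest, and location 1 lay nearer to location 2 than to location 3 on the log scale. AAEL004745 was at 131, 440 and 0.327 CPM in the larvae, in the same order, and also at 0 in the adults. Its lowest value rested on 6 counts out of 18328454. The highest level in this group was that of AAEL004746, named for that reason after its values were seen, at 591, 2476 and 13.3 CPM in larvae and at 0.670, 0 and 4.36 CPM in the adults of locations 1, 2 and 3.

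The larval library of location 3 held the most gene counts of the 6. Of the 44 members, 4 had no count in the larvae of location 3, where 3 counts are 0.164 CPM, and 7, these included, had at most 3. No member was without a count in the larvae of locations 1 or 2. Named after their values were seen, the 4 were AAEL011458, AAEL017293, AAEL017500 and AAEL004769, at 272, 158, 171 and 117 CPM in the larvae of location 2. Against the floor of 3 counts in that library they were at least 1662-fold, 967-fold, 1046-fold and 713-fold higher at location 2. These bounds cover counting error only, because reads copied from 1 amplified fragment are not independent.

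The 7 members highest at location 3 ranged from 112 to 3491 CPM there (median 489). AAEL014433 was the highest member value of any larval library, at 441, 45.6 and 3491 CPM in the larvae of locations 1, 2 and 3, and had 0 counts in the adults. AAEL023292 was at 210, 27.9 and 1812 CPM in larvae and at 6.60, 0 and 0.688 CPM in adults. In both, location 1 lay between the others and location 2 was lowest, with 550 and 336 counts. Location 2 was the lowest in 5 of the 7 and location 1 in the remaining pair.

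Each of the 3 members highest at location 1 sat close to a limit of the rule, on level or on ratio. AAEL004751 was at 110, 75.3 and 0.0546 CPM in the larvae of locations 1, 2 and 3, the last from 1 count, and at 0 in adults. AAEL000665 was at 103, 57.1 and 3.71 CPM in larvae and at 3.16, 0 and 24.5 CPM in adults. In both, location 3 stood apart and locations 1 and 2 lay within 2-fold of each other. AAEL009556, at 375, 17.1 and 27.5 CPM in larvae and 0 in adults, was high at location 1 alone. It was also the member nearest inside the ratio limit, at 20.8, followed by AAEL028233 at 21.0, which was at 44.2, 249 and 10.9 CPM. Nearest outside were AAEL019429 at a ratio of 18.7, with 8.72, 5.98 and 130 CPM, and AAEL020737 at 17.8, with 48.3, 122 and 5.95 CPM.

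Of the 44 members, 11 had identifier numbers from AAEL004745 to AAEL004780. In that window the tables list 34 identifiers, of which 30 had a larval count, 12 reached 100 CPM in a larval library and 11 were members. Other members also had close numbers, such as AAEL019993 and AAEL019994, and no window was drawn around those. The window was drawn after the values were seen, and the tables give no positions, so nearness in number is not shown to be nearness on a chromosome. The 11 ran from 2.47 to 591 CPM (median 131) in the larvae of location 1, from 75.3 to 2476 CPM (median 529) at location 2 and from 0 to 19.3 CPM (median 3.55) at location 3. In 10 of them the order was 2 above 1 above 3. They took 135182 counts in larvae and 52 in adults, and 6 had no adult count. The one gene of the window at 100 CPM or more that was not a member, AAEL004770, was at 1180, 439 and 115 CPM in the larvae, so it had the same lowest location, and at 0 in adults. Since reads that map to several places were not counted, the values of genes with near-identical copies are uncertain.

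**Figure D3:**
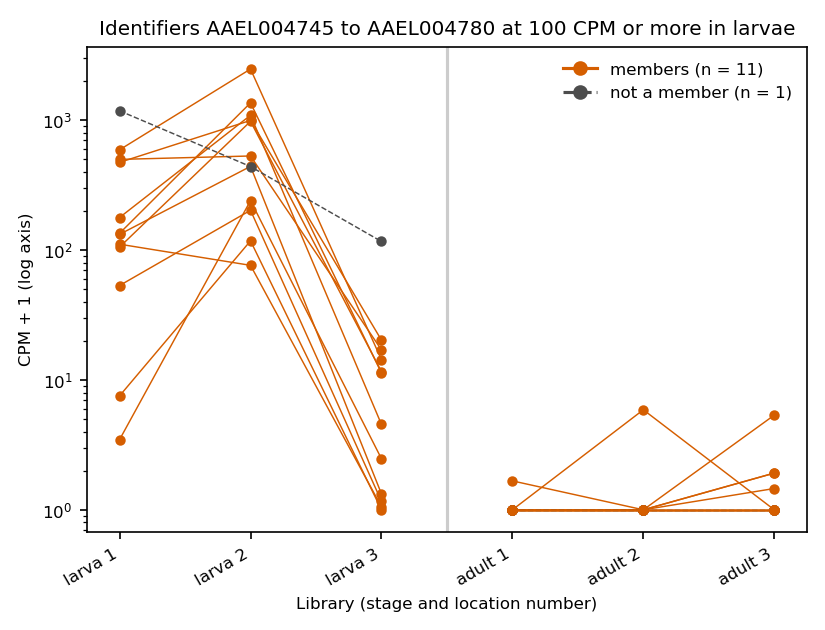
CPM + 1 (log axis) in the 6 libraries for the 12 genes with identifiers from AAEL004745 to AAEL004780 that reached 100 CPM in a larval library, with 1 line per gene and stage. The 11 members (orange) lie at 19.3 CPM or below in the larvae of location 3 and at 4.89 CPM or below in every adult library, and AAEL004770 (grey, dashed) is at 115 CPM in the larvae of location 3.

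Few members were present in adults at a level like that of larvae. No adult library held a count of 16 members (36.4%), nor of 49 of the other 630 genes (7.78%). The highest adult value had a median of 1.22 CPM over the members and 148 CPM over the other genes. It was at least 100 CPM for 4 members, between 10 and 100 CPM for 5, and above 0 but under 10 CPM for 19. At least 100 CPM was reached by 357 of the other 630 genes (56.7%). Adult libraries held fewer gene counts, and 3 counts were 0.287, 0.917 and 0.688 CPM in the adults of locations 1, 2 and 3.

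**Figure D4:**
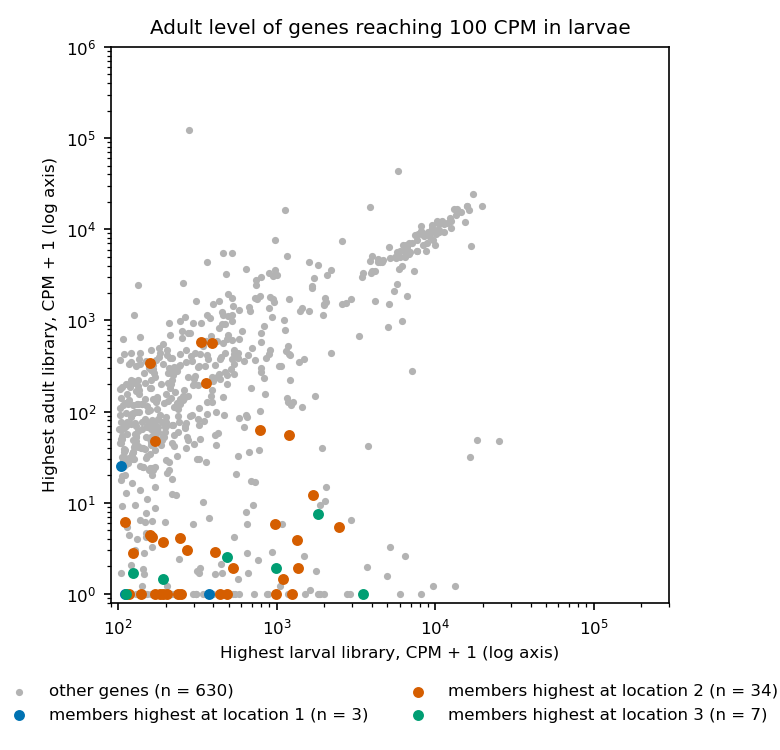
Highest larval CPM + 1 (horizontal, log axis) against highest adult CPM + 1 (vertical, log axis) for the 674 genes with at least 100 CPM in the highest larval library. Most of the 44 members (coloured by the location where they were highest in larvae) lie near the bottom, with a median of 1.22 CPM in adults, and 4 lie at 100 CPM or more.

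The 4 members with at least 100 CPM in an adult library, named after their values were seen, were all highest at location 2 and lowest at location 3 in larvae. AAEL017293 was at 12.1, 158 and 0 CPM in the larvae of locations 1, 2 and 3 and at 109, 109 and 338 CPM in the adults. AAEL012575 was at 291, 331 and 5.67 CPM in larvae and at 38.6, 69.4 and 578 CPM in adults. AAEL001683 was at 260, 389 and 9.82 CPM in larvae and at 140, 121 and 558 CPM in adults. In these 3 genes the larvae of location 3 were the lowest of the 6 libraries, and the adults of the same location were the highest adult library. AAEL021056 differed, at 246, 357 and 4.47 CPM in larvae and 26.8, 207 and 2.29 CPM in adults, with location 2 highest and location 3 lowest at both stages.

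The location highest in larvae was set beside the location highest in adults. Among the 20 members with at least 10 counts in the highest adult library, the location was the same at both stages for 5. Among the other genes with as many adult counts it was the same for 183 of 558 (32.8%), so the members' share (25%) lies near that of other genes. All 5 were members highest at location 2, out of 17 such members. With at least 10 CPM required in place of 10 counts, it was the same for 2 of 9. Left with a pair of locations, the count was 5 of 13 without location 1, 8 of 18 without location 2 and 10 of 18 without location 3. A match is easier with fewer locations to choose from, so these counts are not comparable with 5 of 20. No count over the other genes is given beside these alternatives. The 18 members of the 20 that were lowest at location 3 in larvae were highest in the adults of location 1 for 6, of location 2 for 5 and of location 3 for 7.

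When the member rule was applied to the adult libraries, 18 of the 518 genes with at least 100 CPM in the highest adult library met it (3.47%). Of the 4 members that reached this level, 1 met it, AAEL021056. The adult libraries were not used to choose the members, but 4 genes are too few for a comparison with that share.

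Larvae and adults were compared with edgeR's quasi-likelihood test over all 5030 genes that passed its filter on low counts, with Benjamini-Hochberg adjustment and a threshold of 0.05. The p-values measure the spread between pools of different locations. The fit held stage only and left out the location that a larval and an adult pool share. Results with location as a block are given at the end. Of the 39 members tested, 22 (56.4%) were higher in larvae, beside 6.70% of all genes tested, and 0 were higher in adults, beside 3.14%. Among the other 630 genes at 100 CPM or more in larvae, all of them tested, 181 (28.7%) were higher in larvae and 17 in adults. The rule asks for a high value in a larval library, so these counts are a description and nothing is read from the difference. At an unadjusted p under 0.05, 33 of the 39 were higher in larvae and 0 in adults. DESeq2's test, which covered 33 members, also called 0 higher in adults. The 22 consisted of 14 members highest at location 2, 7 at location 3 and 1 at location 1, with adjusted p from 0.00842 to 0.044, and 10 of them had no adult count. The median log2 difference, adults minus larvae, was -7.95 over the 39 members and -0.41 over all genes tested.

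Most stage calls of members ended in at least 1 fit that left out a library. Fewer libraries can cost a call in any gene, and the share of all genes losing a call was not computed. Leaving out the adults of location 1, 2 or 3 left 8, 1 and 5 members called higher in larvae, and leaving out the larvae of location 1, 2 or 3 gave 17, 12 and 30. With no filter on low counts, 39 of 44 members were called. No share of all genes called is given beside the counts from these other fits, so nothing is read from them about the members. Of the 22 calls, 1 stood in all 6 fits that left out a library, that of AAEL014433. Its mean was 1326 ± 1886 CPM (SD, n = 3) in larvae against 0 in adults, with an edgeR adjusted p of 0.00846 with all libraries and at most 0.0478 with 1 left out. The calls of AAEL023487 (edgeR adjusted p = 0.024) and AAEL004746 (0.025) ended in 5 of these 6 fits, at up to 0.0958 and 0.115. The 4 members with at least 100 CPM in adults did not pass, with edgeR adjusted p of 0.685 for AAEL017293, 0.957 for AAEL012575, 0.903 for AAEL001683 and 0.616 for AAEL021056.

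Reads of most members came from both strands in about equal parts. In the library where each member was highest, the forward column held a median of 51.0% of its strand reads (quartiles 45.4 to 56.2%), against 51.9% (48.3 to 56.3%) in the other 630 genes. The share was under 30% or over 70% for 6 members (13.6%) and for 48 of the other genes (7.62%). The most uneven were AAEL027405, with 96.3% of its reads on the forward strand, and AAEL004747, with 18.6%, both singled out after their values were seen. The 7 members highest at location 3 lay between 39.1% and 57.5%.

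Reads across annotated introns gave a second readout with RefSeq symbols. Uniquely mapped reads over introns that lie in exactly 1 RefSeq gene were summed per gene, and CPM is here relative to all such reads, 4404965 to 6341139 per larval library. These RefSeq genes were not paired with the AAEL identifiers, so they are not counted as members, though the same transcripts may stand behind both. Of 561 RefSeq genes with at least 100 CPM of junction reads in the highest larval library, 22 met the same rule (3.92%), and 21 of these are protein-coding. Location 2 was highest for 14, location 3 for 8 and location 1 for 0, while among the other 539 genes location 2 was highest for 105, location 3 for 179 and location 1 for 255. The order 2 above 1 above 3 held 13 of the 22 and the order 3 above 1 above 2 held 7. Without the larvae of location 3, 3 genes met the rule, and without those of location 2, 8 did, where a library left out can only remove genes.

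**Figure D5:**
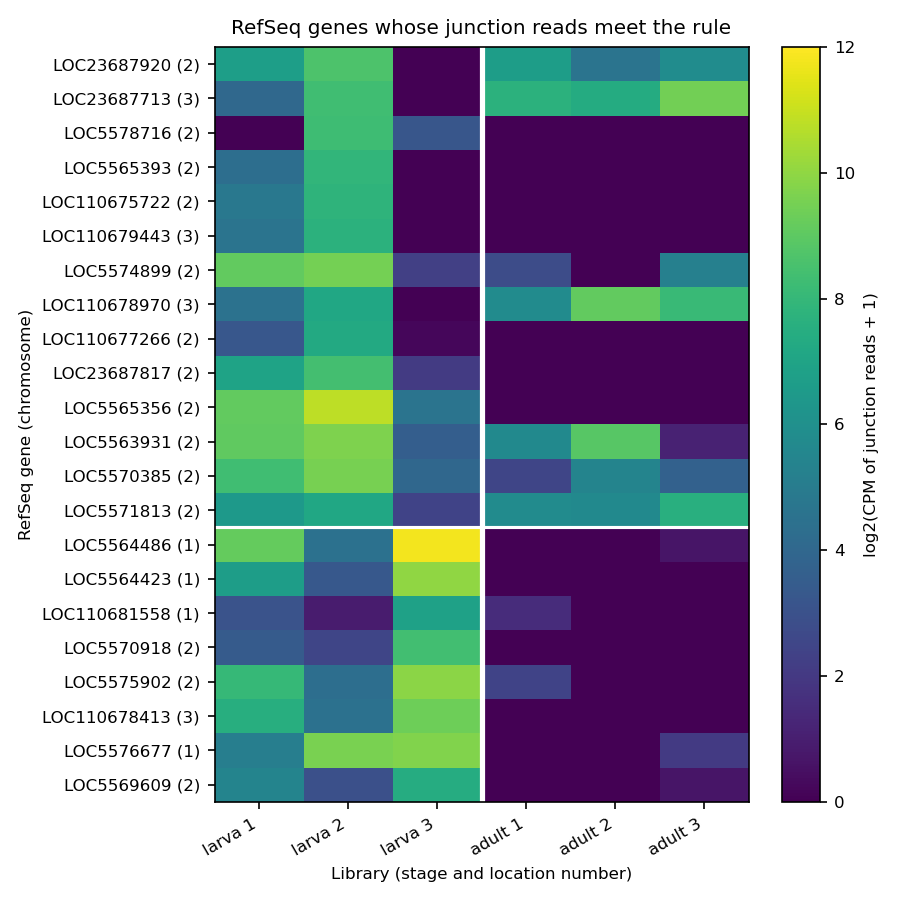
Junction-read level of the 22 RefSeq genes that meet the rule (rows, with the chromosome in brackets, grouped by highest larval location) in the 6 libraries (columns), as log2(CPM + 1) in colour. The upper 14 rows are highest in the larvae of location 2 and the lower 8 in those of location 3, and 10 of the 22 have no adult read.

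A single annotated intron carried the counted reads of 13 of the 22 RefSeq genes (59.1%), against 115 of the 561 genes at 100 CPM or more (20.5%). With at least 3 junctions required, 6 genes met the rule. On chromosomes 1, 2 and 3 lay 4, 14 and 4 of the 22, where the 561 genes were spread as 139, 214 and 208. The share of larval reads over the same introns that mapped to several places was 1.57% in the median gene. It was above 10% in LOC110677266 (50.1%) and LOC110681558 (59.6%), whose levels are therefore uncertain.

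Of the RefSeq genes with the largest ratios at location 2, 6 had no junction read in the larvae of location 3, where 3 reads are 0.473 CPM. LOC23687920 on chromosome 2 was at 106, 402 and 0 CPM of junction reads in the larvae of locations 1, 2 and 3 and at 100, 23.6 and 55.3 CPM in the adults. LOC23687713 on chromosome 3 was at 15.9, 324 and 0 CPM in larvae and at 206, 168 and 700 CPM in adults. LOC110678970 on chromosome 3 was at 21.7, 139 and 0 CPM in larvae and at 54.9, 557 and 278 CPM in adults. These 3 genes were read in every library except the larvae of location 3.

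The other 3 without a read at location 3 were also without an adult read. LOC5565393 on chromosome 2 was at 19.3 CPM at location 1 and 240 CPM at location 2, LOC110675722 on chromosome 2 at 26.8 and 223 CPM, and LOC110679443 on chromosome 3 at 23.8 and 206 CPM. Against the floor of 3 reads they were at least 506-fold, 471-fold and 436-fold higher at location 2 than at location 3. LOC5578716 on chromosome 2 had a different order, with 0, 309 and 8.20 CPM in the larvae of locations 1, 2 and 3 and no adult read. LOC5574899 on chromosome 2 was at 555, 720 and 3.78 CPM in larvae and at 5.95, 0 and 36.8 CPM in adults. The highest level of this group was that of LOC5565356, on chromosome 2, at 558, 1789 and 23.2 CPM in larvae and 0 in adults.

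Some of these genes lay near each other on chromosome 2. Where neighbours could be parted by no more than 2 other protein-coding genes, 1 run formed, of LOC5571813, LOC23687920, LOC23687817 and LOC110675722. LOC110677266, added after its values were seen, lay just beyond it, and the introns of these 5 fall between positions 86005434 and 86348520, a stretch of 343087 bp in the coordinates of the deposited tables. Within that stretch 10 RefSeq genes had junction reads, 5 of them reached 100 CPM in a larval library, and all 5 met the rule with location 2 highest and location 3 lowest. The stretch was drawn around genes that met the rule, so this count is in part fixed by the choice and is no test. The level of LOC110677266 is uncertain, with 50.1% of its larval intron reads mapped to several places. LOC23687817 was at 125, 344 and 3.31 CPM in larvae, with no adult read. LOC5571813 was at 86.7, 143 and 4.26 CPM in larvae and at 53.9, 51.2 and 192 CPM in adults. The order of the larval libraries was shared by these 5, while adult reads were present in LOC5571813 and LOC23687920 and at 0 in the other 3.

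The 8 RefSeq genes highest at location 3 were led by LOC5564486 on chromosome 1, at 574, 21.6 and 3580 CPM of junction reads in the larvae of locations 1, 2 and 3, with 1 read in the adults. LOC5564423, also on chromosome 1, was at 102, 8.85 and 1012 CPM in larvae with no adult read. LOC5575902 on chromosome 2, counted over 6 introns, was at 264, 19.5 and 951 CPM, and LOC110678413 on chromosome 3, counted over 4, at 185, 21.1 and 647 CPM. In these 4 genes location 1 lay between the others. LOC5576677 on chromosome 1 differed, at 34.4, 770 and 837 CPM, with locations 2 and 3 within 2-fold of each other and location 1 low. LOC5570918, LOC5569609 and LOC110681558 were lower, at 330, 171 and 115 CPM in the larvae of location 3.

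In the stage test on junction reads, 16 of the 22 passed the filter on low counts, and 9 were higher in larvae by edgeR's adjusted p, beside 4.62% of the 2534 genes tested. As above, the rule bears on this direction. LOC110678413 (edgeR adjusted p = 0.0053) kept its call in all 6 fits that left out 1 library, and LOC5564486 (0.00436) in 5 of them, ending at 0.0512 without the adults of location 3. Leaving out the adults of location 1, 2 or 3 left 3, 2 and 2 calls, with no share of all genes given beside them. None of the 16 was called higher in adults, beside 2.17% of the genes tested, and DESeq2 called 0 of the 15 it tested. At an unadjusted p under 0.05, 11 of the 16 were higher in larvae and 0 in adults. LOC23687713 and LOC110678970, with means of 113 ± 182 and 53.5 ± 74.7 CPM in larvae and 358 ± 296 and 297 ± 252 CPM in adults (SD, n = 3), had edgeR adjusted p of 0.73 and 0.54. With location number as a replicate block in the same edgeR fit, both were called higher in adults, at adjusted p of 0.00372 and 0.00565.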

How the data were processed

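Whole-body RNA of 3 larval and 3 adult pools was sequenced as paired ends of 150 bases, per the labels' protocols, and FastQC, cutadapt, fastp, STAR and edgeR are named in the submitters' processing notes without versions. The genome build and the gene annotation were not stated in these sources. The authors deposited counts, not normalized, per gene (both strands, forward, reverse) and counts of reads per intron. The 4 summary rows for reads counted in no single gene (69.3 to 92.3% of reads) were left out.

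The rule was applied to counts for both strands over their sum. Introns were placed in RefSeq genes by position: 99.97% of 15077 annotated introns lay inside one, against 55.97% after a shift of 100000 bp. Stages were compared in R 4.3.3 with edgeR 4.0.16 (TMM, filterByExpr, glmQLFit, glmQLFTest, stage only); DESeq2 1.42.0 gave alternatives, and the tests were tried on simulated counts. Python 3.11.15 did the rest.

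Members, lists and alternatives were chosen with earlier results of these data known. Named identifiers are the 2 with the largest ratio per highest location and the 2 nearest each side of the ratio limit; others are marked where named. Named RefSeq genes are the 8 with the largest ratio per location, the 5 with the highest CPM, and runs of at least 3. Lists by product name were not run, since no table gave products. Intervals and floors cover counting error only.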

Additional observations from a re-analysis of the deposited data

Results flagged for a closer look

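The members with at least 10 counts in the adults of location 2 or 3 numbered 13. In all of them the larvae of location 3 lay below those of location 2, on larval values that the rule had used. In 8 of the 13 the larvae of location 3 lay below those of location 2 while the adults of location 3 lay above those of location 2. Among the other genes at 100 CPM or more in larvae, with as many adult counts and the same larval direction, this was so for 102 of 186 (54.8%), so the members' count lies near that of other genes. In the remaining 5 members the adults of location 3 were also the lower. The adult difference was widest in AAEL012575, AAEL001683 and AAEL017293, where the adults of location 3 were higher by 509, 437 and 229 CPM and the larval differences were -325, -380 and -158 CPM. AAEL011504, AAEL000665 and AAEL017500 were higher by 50.2, 24.5 and 11.6 CPM in the adults of location 3, with larval differences of -758, -53.4 and -171 CPM. AAEL004746 and AAEL027405 were higher by 4.36 and 3.44 CPM, from 19 and 15 counts at location 3 and 0 at location 2. Of 7 RefSeq genes that met the rule on junction reads and had at least 10 adult reads at location 2 or 3, the adults of location 3 were higher in 4, LOC23687713, LOC5571813, LOC5574899 and LOC23687920, by 531, 141, 36.8 and 31.6 CPM. They were lower in LOC110678970, LOC5563931 and LOC5570385, and among the other RefSeq genes chosen in the same way they were higher in 78 of 135 (57.8%). With 1 pool per stage and location, none of these differences was tested.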

How the results depend on the processing

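The count of members, 44, was 25 with a ratio of at least 50 and ran from 6 to 39 when 1 larval library was left out. Leaving out a larval library can only remove genes from the rule, here and for the RefSeq genes below. The count of members stayed within 1.5 times under TMM, DESeq2 size factors, either strand column, a pseudocount of 5 and a ratio of at least 10. Members highest at location 1 numbered 0 with TMM, DESeq2 size factors or the forward column, 1 with a pseudocount of 5 or a ratio of at least 50, and 5 with a ratio of at least 10. Those highest at location 2 numbered 21 with a ratio of at least 50, and those highest at location 3 numbered 11 and 3 with ratios of at least 10 and 50. Members highest at the same location at both stages numbered 2 with at least 10 CPM in adults and 5 to 10 when both libraries of 1 location were left out. A match is easier with fewer locations, so the latter counts are not on the scale of the main one. Members called higher in larvae numbered 39 with no low-count filter and 1 to 30 when 1 library was left out. No share of all genes called is given beside the alternative stage calls of this paragraph. RefSeq genes meeting the rule numbered 6 with at least 3 junctions and 3 to 21 when 1 larval library was left out, and those called higher in larvae 2 to 12 when 1 library was left out. With location number as a replicate block, 26 members in place of 22 and 12 RefSeq genes in place of 9 were higher in larvae, and 2 RefSeq genes, LOC23687713 and LOC110678970, were higher in adults in place of 0 (edgeR adjusted p = 0.00372 and 0.00565). The deviations of same-numbered larvae and adults correlated at -0.035 to 0.016 over genes and at 0.0096 to 0.029 over junction reads. The best adult match had the same number for location 2 over genes, and for locations 2 and 3 over junction reads. Larvae and adults of a number come from the same location, so the design pairs them. The main fits left this pairing out. Correlations over 3 libraries per stage cannot decide whether it matters, so both results are given. Of 260 values for the 22 called members under all settings run, 187 kept the call, 73 lost it, 71 of them with 1 library left out, and 0 changed direction. Of the 22, 10 had no adult count and the others had low adult values. The direction had little room to change, so that last count is no support. The causes of the shifts in this paragraph were not tested. Depth limits low adult values: 3 counts are 0.287 to 0.917 CPM there.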
